A study of Mus musculus with 18 samples.

Results

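The 37 genes described here encode DNA repair proteins, and they were taken by symbol from the 5 expression tables of a mouse glioma study. All 37 were found in every table, out of 50975 distinct gene names over the 5 tables, and all 37 passed the filter on low counts in each of the 3 bulk comparisons. They comprise 14 genes of homologous recombination, 6 Fanconi genes, 3 of mismatch repair, 12 of base excision and single-strand break repair, Polq of theta-mediated end joining and Mgmt of direct reversal.

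The study asks how the genetic driver of a glioblastoma shapes its macrophages and microglia, and what happens when CSF1R, a receptor they depend on, is inhibited. PLX3397 is an oral small-molecule inhibitor of CSF1R. All mice were of the Boy/J strain, and their ages are not given in the labels. CD11b-positive cells came from PDGFB-driven tumours of mice given PLX3397 at 100 mg/kg daily (2 libraries) or vehicle (1 library), in both cases for 3 days from day 14 after implantation. They were isolated with magnetic beads, so cells of other types can remain. Ras tumours, driven by HRasV12 with a dominant negative p53, came from mice given PLX3397 at 100 mg/kg daily (4 tumours) or vehicle (4 tumours, which the labels also call untreated) from day 7 until the mice were moribund. Cultured lines were grown from Ras tumours (2 lines) and from PDGF tumours (3 lines), in different media: that of the PDGF lines also held PDGF-AA and PDGF-BB. One untreated Ras tumour library each was made with 10x and with Drop-seq. The labels do not say that replicates came from separate litters or cultures, so p-values measure the spread between these libraries.

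Homologous recombination copies an intact sister chromatid to mend a double-strand break, and it works in S and G2 phase. The Fanconi proteins unhook DNA crosslinks at stalled forks and hand the break on to recombination. Mismatch repair corrects errors of the replication fork, base excision repair removes single damaged bases at any time in the cell cycle, and MGMT strips alkyl groups from guanine and so bears on the response of glioma to temozolomide.

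Library totals were 26.8 to 30.9 M counts (M: units of 1e6) in CD11b-positive cells, 31.3 to 35.9 M in Ras tumours and 32.0 to 35.9 M in lines. Levels of single genes per library are CPM, counts scaled to 1e6 after TMM normalization within a table, while sums over a list and levels per kilobase are CPM of the library total without TMM. The leukocyte genes Ptprc, Tyrobp, Itgam and Csf1r together stood at 3497 and 3443 CPM in PLX3397 and 4506 CPM in vehicle CD11b-positive cells, and at 58.2 to 369 CPM in PLX3397 and 299 to 594 CPM in vehicle Ras tumours. In the lines they summed to 24.6 CPM in PDGF line 3 and to at most 0.336 CPM in the others. How reads were assigned to strands is not given in the sources used here, and exons of some repair genes overlap another gene. The overlap takes 61.7% of the exon bases of Apex1 (with Pip4p1, opposite strand), 35.8% of Rad54b (with Fsbp, same strand) and 25.1% of Lig3 (with Rffl), and smaller shares of Fanci, Fancc, Rad54l, Ogg1 and Fanca, so the values of these genes are uncertain.

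Promoters, defined as 250 bases before to 50 bases after a gene's start, were available from RefSeq (build GRCm38.p6) for 31 of the 37 genes. The windows of 4 are shown because Rad51ap1 and Neil3 had the largest differences in the CD11b-positive cells, while Lig1 and Msh6 hold an E2F-type word, the kind of site bound by the E2F factors that switch on genes for S phase. Capitals mark that word, which in Lig1 is TTTCGCGC read on the other strand. Lig1 has 3 such windows, of which 1 holds the word. The Lig1 window is chr7:13278576-13278875 on the plus strand, the Msh6 window chr17:87974800-87975099 on the plus strand, the Rad51ap1 window chr6:126939538-126939837 on the minus strand and the Neil3 window chr8:53639016-53639315 on the minus strand.
Lig1 promoter: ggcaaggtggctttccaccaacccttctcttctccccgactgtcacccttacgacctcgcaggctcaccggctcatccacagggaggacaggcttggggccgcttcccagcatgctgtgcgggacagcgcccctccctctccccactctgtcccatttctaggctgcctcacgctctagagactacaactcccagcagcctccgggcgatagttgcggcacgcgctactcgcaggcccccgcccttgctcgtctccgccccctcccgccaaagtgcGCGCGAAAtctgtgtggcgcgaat
Msh6 promoter: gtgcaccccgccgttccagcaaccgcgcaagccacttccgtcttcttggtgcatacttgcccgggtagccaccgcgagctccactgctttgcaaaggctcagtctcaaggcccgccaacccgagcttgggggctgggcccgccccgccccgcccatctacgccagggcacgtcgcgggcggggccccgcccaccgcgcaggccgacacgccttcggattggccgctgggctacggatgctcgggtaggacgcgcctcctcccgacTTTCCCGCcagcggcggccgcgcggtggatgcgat
Rad51ap1 promoter: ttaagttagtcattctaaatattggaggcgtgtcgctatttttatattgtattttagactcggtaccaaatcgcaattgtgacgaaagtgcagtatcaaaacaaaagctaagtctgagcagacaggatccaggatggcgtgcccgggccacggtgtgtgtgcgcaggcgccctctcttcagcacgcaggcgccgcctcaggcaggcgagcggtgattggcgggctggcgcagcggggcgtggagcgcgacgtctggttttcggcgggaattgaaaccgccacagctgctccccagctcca
Neil3 promoter: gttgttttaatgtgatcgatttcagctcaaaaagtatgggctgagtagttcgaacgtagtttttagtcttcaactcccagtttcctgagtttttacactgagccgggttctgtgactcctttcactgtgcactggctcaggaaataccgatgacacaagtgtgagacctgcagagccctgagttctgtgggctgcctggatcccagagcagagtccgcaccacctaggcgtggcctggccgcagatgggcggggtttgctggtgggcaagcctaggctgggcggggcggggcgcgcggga
The words searched, on both strands, were TTTCCCGC, TTTCGCGC, TTTGCCGC and TTTGGCGC. At least 1 of them occurred in 6 of the 31 genes (19.4%), against 704 of all 27025 genes with a promoter in the table (2.6%). The 6 were Bard1, Brca2, Lig1, Msh3, Msh6 and Rad51c. CCAAT, the word of the NF-Y factor, occurred in 17 of the 31 (54.8%), against 41.1% of all genes, and TTTGAA, the cell cycle homology region found in genes of mitosis, in 3 of the 31 (9.7%), against 20.2%. Rad51ap1 carried CCAAT at 2 places and neither of the other words, and Neil3 carried none of the 3 kinds. A word in a window is a description of these letters and does not show binding. Only exact matches were counted, so a window without a word may still hold a close variant of it.

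In CD11b-positive cells, 10 of the 37 repair genes fell under PLX3397 and none rose. The background was 1.78% of all 15052 genes tested called lower and 4.57% called higher (6.35% in all), by the edgeR quasi-likelihood test at a Benjamini-Hochberg adjusted p under 0.05. At an unadjusted p under 0.05, 22 of the 37 were lower, against 11.1% of all genes, and 16 had a log2 fold of -1 or lower, against 3.93%. The log2 fold was below 0 for 35 of the 37, against 49.5% of all genes. The median of the 37 was -0.85, against 0.0066 over all genes. Both PLX3397 values lay below the vehicle value for 34 of the 37, against 42% of all genes. They lay above it for 1 (Fancc), against 41.6% of all genes. The genes that fell belong to homologous recombination (3 of 14), the Fanconi pathway (3 of 6) and base excision and single-strand break repair (4 of 12).

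Among recombination genes, Rad51ap1, an accessory factor of strand invasion, had 2.44 and 3.99 CPM in the PLX3397 libraries, against 21.1 CPM in the vehicle library, a log2 fold of -2.71 (SE 0.35, adjusted p = 0.0351). Brip1, a helicase that binds BRCA1, had 3.06 and 5.42 CPM under PLX3397 and 20.1 CPM under vehicle, a log2 fold of -2.24 (SE 0.38, adjusted p = 0.0484). Rad54l, a motor protein that drives strand exchange, had 2.51 and 4.08 CPM under PLX3397 and 14.8 CPM under vehicle, a log2 fold of -2.16 (SE 0.37, adjusted p = 0.0466). In each of the 3 both treated libraries lay below the vehicle library, as for 42% of all genes tested. The second treated library was the higher one. Brca1 at -1.52 (SE 0.31, adjusted p = 0.0606) and Rad54b at -1.81 (SE 0.34, adjusted p = 0.0519) missed the threshold. All 14 recombination genes had folds below 0, and the one nearest to 0 was Xrcc3 at -0.40 (SE 0.22, adjusted p = 0.299).

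Of the Fanconi genes, the pair whose products clamp onto DNA together both fell. Fancd2 had 3.36 and 5.39 CPM in PLX3397 cells and 21.2 CPM in vehicle cells, a log2 fold of -2.27 (SE 0.34, adjusted p = 0.0424). Fanci had 3.77 and 4.44 CPM in PLX3397 cells and 14.1 CPM in vehicle cells, a log2 fold of -1.78 (SE 0.275, adjusted p = 0.0426). Fanca, a subunit of the core complex that ubiquitinates this pair, had 9.34 and 10.5 CPM under PLX3397 and 22.3 CPM under vehicle, a log2 fold of -1.17 (SE 0.21, adjusted p = 0.0483). Fancc, another core subunit, stood near 0, with 7.64 and 7.65 CPM under PLX3397 and 7.61 CPM under vehicle, a log2 fold of 0.0062 (SE 0.27, adjusted p = 0.99).

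The base excision genes spread widest. Neil3, a glycosylase that also opens crosslinks during replication, had 1.26 and 2.84 CPM in PLX3397 cells and 21.5 CPM in the vehicle cells, a log2 fold of -3.38 (SE 0.48, adjusted p = 0.041). Its relative Neil2, a glycosylase linked to repair of transcribed genes, had 4.28 and 2.29 CPM under PLX3397 and 2.64 CPM under vehicle, so its groups overlapped (log2 fold 0.31, SE 0.52, adjusted p = 0.729). The 2 relatives thus stood at opposite ends of the group, and the difference between them was not tested. Lig1, the ligase that seals Okazaki fragments as well as repair patches, had 20.3 and 32.2 CPM under PLX3397 and 94.7 CPM under vehicle, a log2 fold of -1.85 (SE 0.29, adjusted p = 0.044). Lig3, the ligase that works with XRCC1, stayed closer, at 33.6 and 36.1 CPM under PLX3397 and 39.8 CPM under vehicle (log2 fold -0.19, SE 0.16, adjusted p = 0.48). All PLX3397 values of both ligases lay below the vehicle value, as for 42% of all genes tested, and by far more for Lig1. Ung, which removes uracil, had 8.12 and 8.37 CPM under PLX3397 and 18.5 CPM under vehicle, a log2 fold of -1.17 (SE 0.21, adjusted p = 0.04998). Parp1, the sensor of strand breaks, had 108 and 109 CPM under PLX3397 and 204 CPM under vehicle, a log2 fold of -0.91 (SE 0.14, adjusted p = 0.0434). Ung and Parp1 had nearly the same level in both PLX3397 libraries.

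Polq, the polymerase of theta-mediated end joining, had 3.1 and 5.39 CPM in PLX3397 cells and 18 CPM in vehicle cells, a log2 fold of -2.08 (SE 0.38) that missed the threshold (adjusted p = 0.0522). None of the 3 mismatch repair genes was called, and their folds ran from -0.84 for Msh3 to -0.42 for Msh6. Mgmt had 5.13 and 4.71 CPM under PLX3397 and 6.04 CPM under vehicle (log2 fold -0.30, SE 0.31, adjusted p = 0.569).

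**Figure D1:**
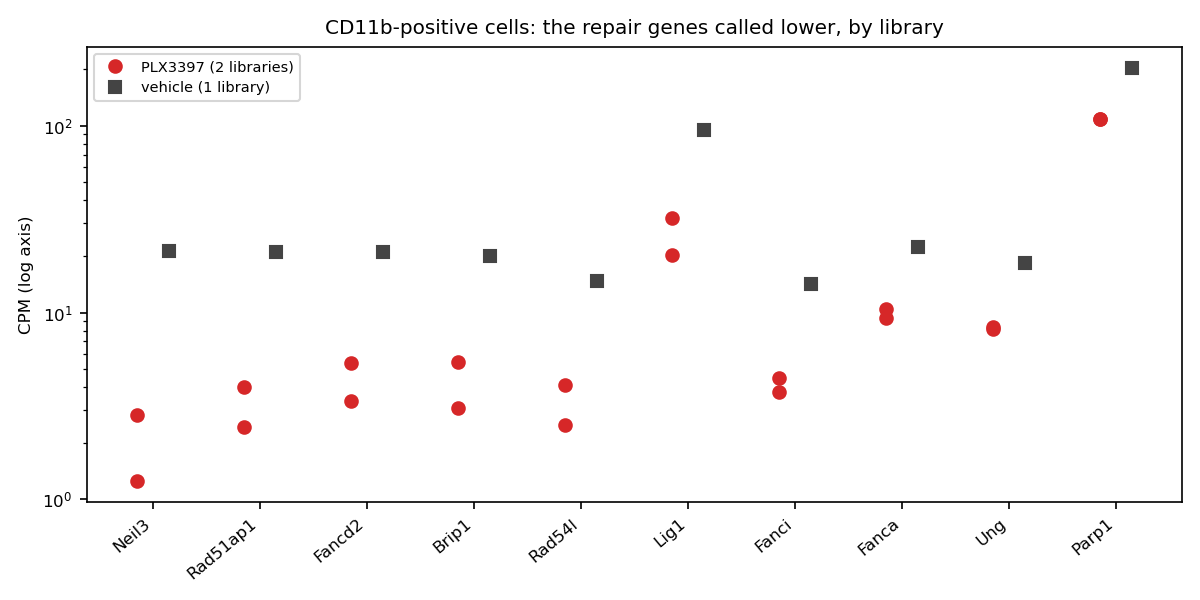
CPM on a log axis of the 10 repair genes called lower in CD11b-positive cells, with 2 PLX3397 libraries (circles) left of the 1 vehicle library (square) for each gene. Every PLX3397 value lies below the vehicle value, as for 42% of all genes tested. The gap is widest for Neil3, at 1.26 and 2.84 CPM against 21.5 CPM.

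Of 35 tested genes of non-homologous end joining, nucleotide excision repair, and break sensing and checkpoint, 0 were called in either direction. The background was 1.78% of all genes called lower and 4.57% called higher, so 0 of 35 does not set these genes apart. Their median log2 fold was -0.15. By list it was -0.05 for end joining (6 of 9 below 0) and -0.09 for nucleotide excision (8 of 13 below 0). For break sensing and checkpoint it was -0.32 (11 of 13 below 0). Nearest to the recombination genes were Chek1, the checkpoint kinase of stalled forks, at -1.01 (SE 0.48, adjusted p = 0.241), and Topbp1, at -0.95 (SE 0.23, adjusted p = 0.0802). Genes of cell division fell in the same cells: 8 of 15 were called lower (median log2 fold -1.76), among them Mki67 at -2.37 (SE 0.25, adjusted p = 0.0345). Of 18 genes of DNA replication, 5 were called lower (median -1.42), among them Mcm3 at -1.46 (SE 0.17, adjusted p = 0.0345). The division genes summed to 341 and 520 CPM in the PLX3397 libraries and 1459 CPM in the vehicle library, and the 37 repair genes to 505 and 544 CPM in the PLX3397 libraries and 934 CPM in the vehicle library. Fewer cells of a type and less RNA per cell cannot be told apart in bulk libraries.

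The makeup of the isolated cells also differed. The 8 astrocyte or glial tumour markers summed to 796 and 746 CPM under PLX3397 and 127 CPM under vehicle, with 6 of 8 called higher, and the 6 neuron markers to 127 and 143 CPM under PLX3397 and 28.5 CPM under vehicle, with 4 of 6 called higher. Of the 8 oligodendrocyte lineage markers, 5 were called higher, at 423 and 324 CPM in sum under PLX3397 and 102 CPM under vehicle. None of the 4 leukocyte genes and 1 of 7 microglia markers was called lower. The median log2 fold was -0.52 over the leukocyte genes, -0.55 over microglia markers and -0.40 over 8 macrophage or monocyte markers. Over 7 neutrophil markers it was 1.33, with 6 above 0 and 0 called. Over 4 fibroblast markers it was 2.46 and over 5 pericyte markers 1.26, with 1 called higher in each. The part of this shift in the repair genes was not tested. With 1 vehicle library the fit has 1 residual degree of freedom, takes that library to vary like the treated ones, and rests every call on it. In simulated data of this design the share of false calls exceeded the nominal level, so calls near the threshold are less certain than their adjusted p states. When either PLX3397 library was left out, no test was possible, and the median log2 fold of the 37 genes was -0.80 or -0.94.

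In whole Ras tumours none of the 37 repair genes was called in either direction. The background was also 0% of 18366 genes, and no repair gene had an unadjusted p under 0.05, against 0.414% of all genes on the higher and 3.11% on the lower side. DESeq2 also called none of the 37, against 0.872% of all genes called lower and 0.0149% called higher by it. The log2 fold was below 0 for 22 of the 37, against 49.7% of all genes, and at -1 or lower for 0, against 2.97%. The median of the 37 was -0.03, against 0.0015 over all genes, and the values of PLX3397 and vehicle tumours overlapped for each of the 37, against 0.446% of all genes with every PLX3397 value above and 2.09% with every PLX3397 value below the vehicle values.

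The smallest p belonged to Neil3, at 6.27, 6.39, 9.82 and 9.44 CPM in PLX3397 tumours and 14.5, 6.33, 12.6 and 14.2 CPM in vehicle tumours (log2 fold -0.58, SE 0.31, unadjusted p = 0.0968, adjusted p = 0.9998 by edgeR). Vehicle tumours 1, 3 and 4 stood above all treated ones and the other within their range. Mgmt was scarce, at 1.31, 1.12, 0.708 and 0.595 CPM in PLX3397 tumours and 2.01, 1.16, 1.96 and 0.946 CPM in vehicle tumours (log2 fold -0.70, SE 0.40, adjusted p = 0.9998). Its counts were 20 to 42 per PLX3397 library and 28 to 71 per vehicle library, which limits their precision. Ung had 8.45, 5.98, 9.71 and 9.91 CPM under PLX3397 and 12, 8.67, 9.2 and 12.3 CPM under vehicle (log2 fold -0.31, SE 0.23). Brip1 had 9.7, 13.7, 19.0 and 15.8 CPM under PLX3397 and 17.9, 12, 17.9 and 24 CPM under vehicle (log2 fold -0.30, SE 0.27). Both had overlapping groups.

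On the other side of 0, Msh3, which recognises insertion loops, had 24.4, 24.5, 25.7 and 25.5 CPM in PLX3397 tumours and 25.6, 23.6, 22.3 and 20.6 CPM in vehicle tumours (log2 fold 0.12, SE 0.12). Ogg1, the glycosylase for 8-oxoguanine, had 19.5, 24.7, 30.8 and 28.2 CPM under PLX3397 and 26.3, 22.5, 21.9 and 22.4 CPM under vehicle (log2 fold 0.15, SE 0.17). For both genes the values of PLX3397 and vehicle tumours overlapped, and neither gene was called. Among recombination genes the folds ran from -0.30 for Brip1 to 0.29 for Rad51c, among Fanconi genes from -0.13 for Fancm to 0.06 for Fancc, and among mismatch repair genes from -0.03 for Msh6 to 0.12 for Pms2. Polq had a log2 fold of 0.01 (SE 0.28).

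The 37 repair genes summed to 821, 822, 1080 and 1023 CPM in PLX3397 tumours and 962, 800.2, 1011 and 985 CPM in vehicle tumours. PLX3397 tumours 1 and 2 and vehicle tumour 2 were the low ones, and they were also the 3 lowest for the summed division genes, at 852 and 1092 CPM in those PLX3397 tumours and 1019 CPM in that vehicle tumour, against 1333 to 1727 CPM in the other tumours. PLX3397 tumour 1 and vehicle tumour 2 also had the highest neuron markers, at 2839 CPM and 2815 CPM. The part of tissue makeup in these levels was not tested. The coefficient of variation had a median of 28.1% over recombination genes in PLX3397 tumours and 21.2% in vehicle tumours, and over base excision genes of 16.7% in PLX3397 tumours and 14.7% in vehicle tumours.

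**Figure D2:**
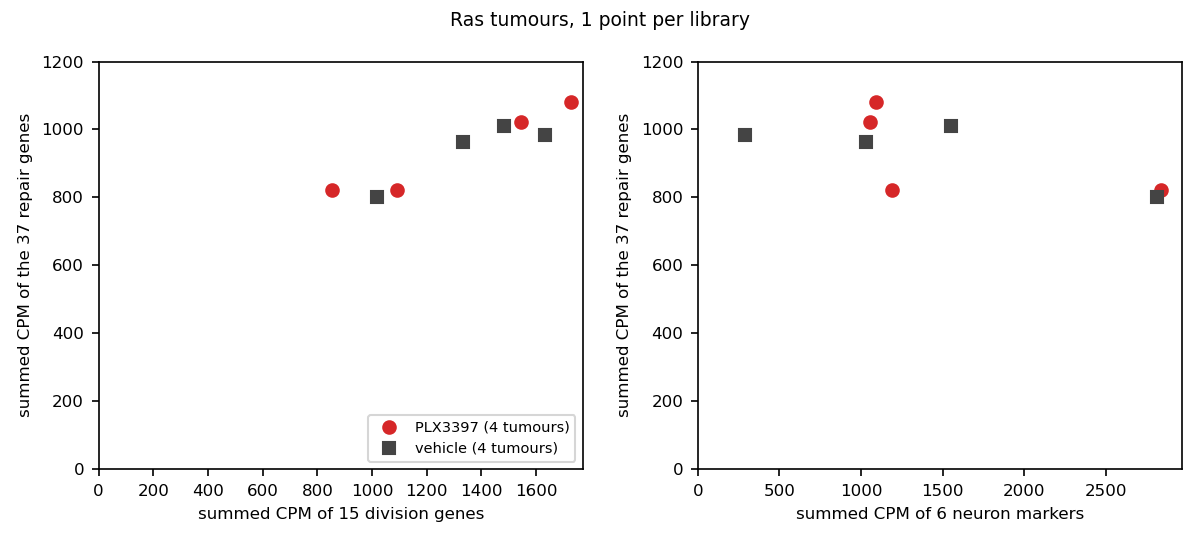
Summed CPM (without TMM) of the 37 repair genes (vertical axis) against summed CPM of 15 division genes (left) and of 6 neuron markers (right) in the 4 PLX3397 (circles) and 4 vehicle (squares) Ras tumours, 1 point per library. The 3 tumours with 800.2 to 822 CPM of repair genes are those with the lowest division sums, and they come from both groups.

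Between the cultured lines no repair gene was called in either direction by edgeR, and 0% of all 17475 genes were. At an unadjusted p under 0.05, 1 repair gene was higher and 2 were lower in Ras lines, against 8.8% of all genes higher and 7.46% lower. The log2 fold was below 0 for 21 of the 37, against 49.1% of all genes. The median log2 fold of the 37 was -0.05 in Ras lines against PDGF lines, beside 0.0137 over all genes. DESeq2 called 1 of the 37, Neil2, lower and none higher, against 5.3% of all 19344 genes it tested called lower and 5.28% called higher.

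Neil2 was near absent from the Ras lines, with 1 and 3 counts there (0.0302 and 0.0922 CPM) and 20, 10 and 27 counts in the PDGF lines (0.577, 0.303 and 0.8 CPM). The ratio of the summed counts, Ras over PDGF lines, was 0.108. Its counting interval of 0.0285 to 0.293 treats counts as independent and leaves out the spread between lines. Of the counts from 1 to 10 in the line libraries, 64.4% to 67% were even, so they may not be independent. The unadjusted p of Neil2 was 0.0167 (edgeR, adjusted p = 0.237). Apex1, which cuts the abasic site left by a glycosylase, had 115 and 131 CPM in Ras lines and 93.4, 70.4 and 79.6 CPM in PDGF lines (log2 fold 0.60, SE 0.20, adjusted p = 0.265). Polb, the polymerase that fills the resulting gap, had 27.4 and 41.0 CPM in Ras lines and 60.8, 48.8 and 58.3 CPM in PDGF lines (log2 fold -0.71, SE 0.26, adjusted p = 0.289). These neighbours in base excision repair thus differed in opposite directions without passing the test, and the Apex1 value is uncertain because of its overlap with Pip4p1.

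Among Fanconi genes, Fanca had 33.3 and 30.7 CPM in Ras lines and 39.7, 57.3 and 43.2 CPM in PDGF lines (log2 fold -0.54, SE 0.24, adjusted p = 0.344). Fanci had 28.2 and 91.6 CPM in Ras lines and 134, 102 and 131 CPM in PDGF lines (log2 fold -1.03, SE 0.54, adjusted p = 0.403). Fancb, a core subunit, had the highest fold of that pathway, 0.47 (SE 0.40). Fanci was called lower when Ras line 2 was left out (log2 fold -2.14, adjusted p = 0.0239), a value that rests on Ras line 1 alone. That fit called 5.68% of all 18970 genes lower and 5.45% higher, and Fanci was the one repair gene among them. Neil3 had 16.2 and 27.6 CPM in Ras lines and 46.5, 24.9 and 46.7 CPM in PDGF lines, and its groups overlapped (log2 fold -0.84, SE 0.42, adjusted p = 0.384).

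Mgmt had 4.25 and 7.69 CPM in Ras lines and 3.64, 3.48 and 2.93 CPM in PDGF lines (log2 fold 0.83, SE 0.45, adjusted p = 0.411). Recombination genes ran from -0.39 for Rad51c to 0.62 for Exo1, an exonuclease that resects breaks, and mismatch repair genes from -0.17 for Pms2 to 0.34 for Msh6. Polq had a log2 fold of -0.31 (SE 0.40). The groups did not overlap for 6 genes higher in Ras lines and 4 lower, against 17.9% and 20.6% of all genes.

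The 2 Ras lines also differed from each other. Ras line 2 exceeded Ras line 1 for 30 of the 36 genes other than Neil2, by a median of 1.62-fold and by at least 2-fold for 12 of them, with Fanci at 3.24-fold. Ras line 2 also had more counts of division genes, 3725 CPM against 1857 CPM in Ras line 1, and of replication genes, 2690 CPM against 1342 CPM. Neil1 ran the other way, with 21.0 CPM in Ras line 1 and 8.06 CPM in Ras line 2. With 2 lines this is a description with no test. The same shares over all genes were not taken, so it cannot be told whether the difference is particular to repair genes.

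**Figure D3:**
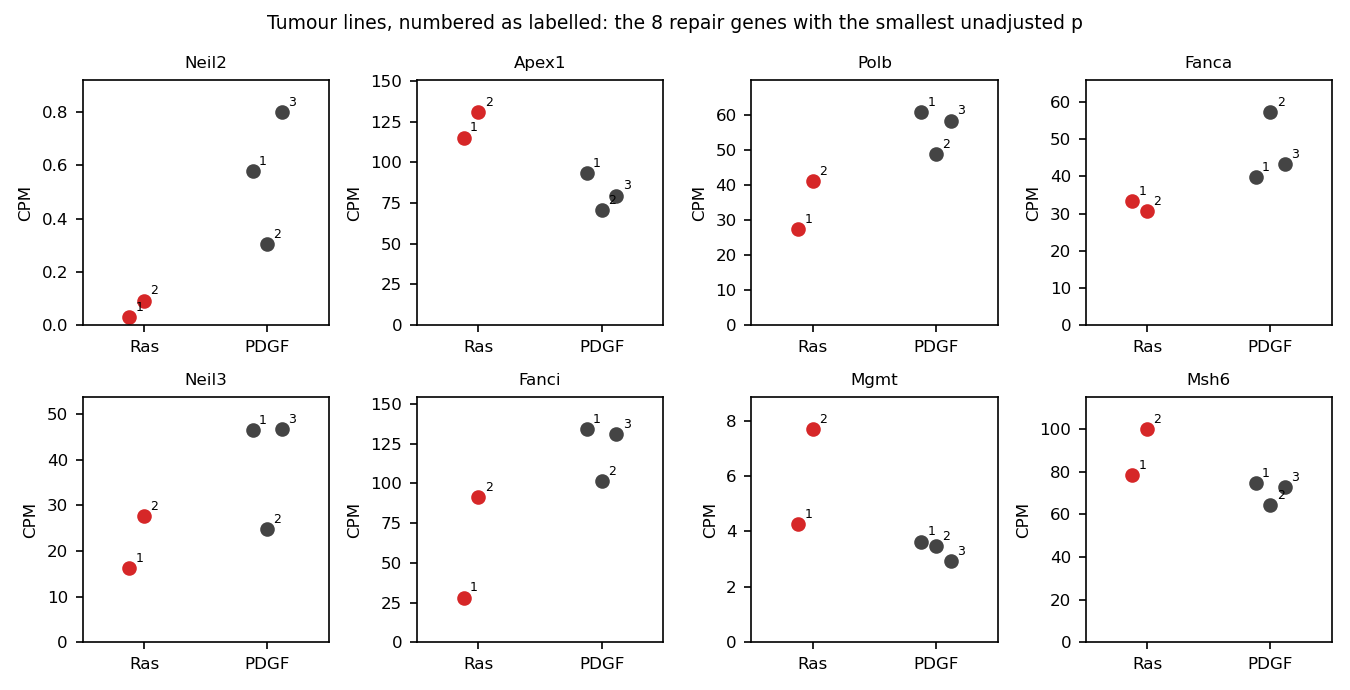
CPM of the 8 repair genes with the smallest unadjusted p in Ras lines (left of each panel) and PDGF lines (right), numbered as labelled. Ras line 1 lies below Ras line 2 in all panels but Fanca, and for Fanci the lines stand at 28.2 and 91.6 CPM.

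**Figure D4:**
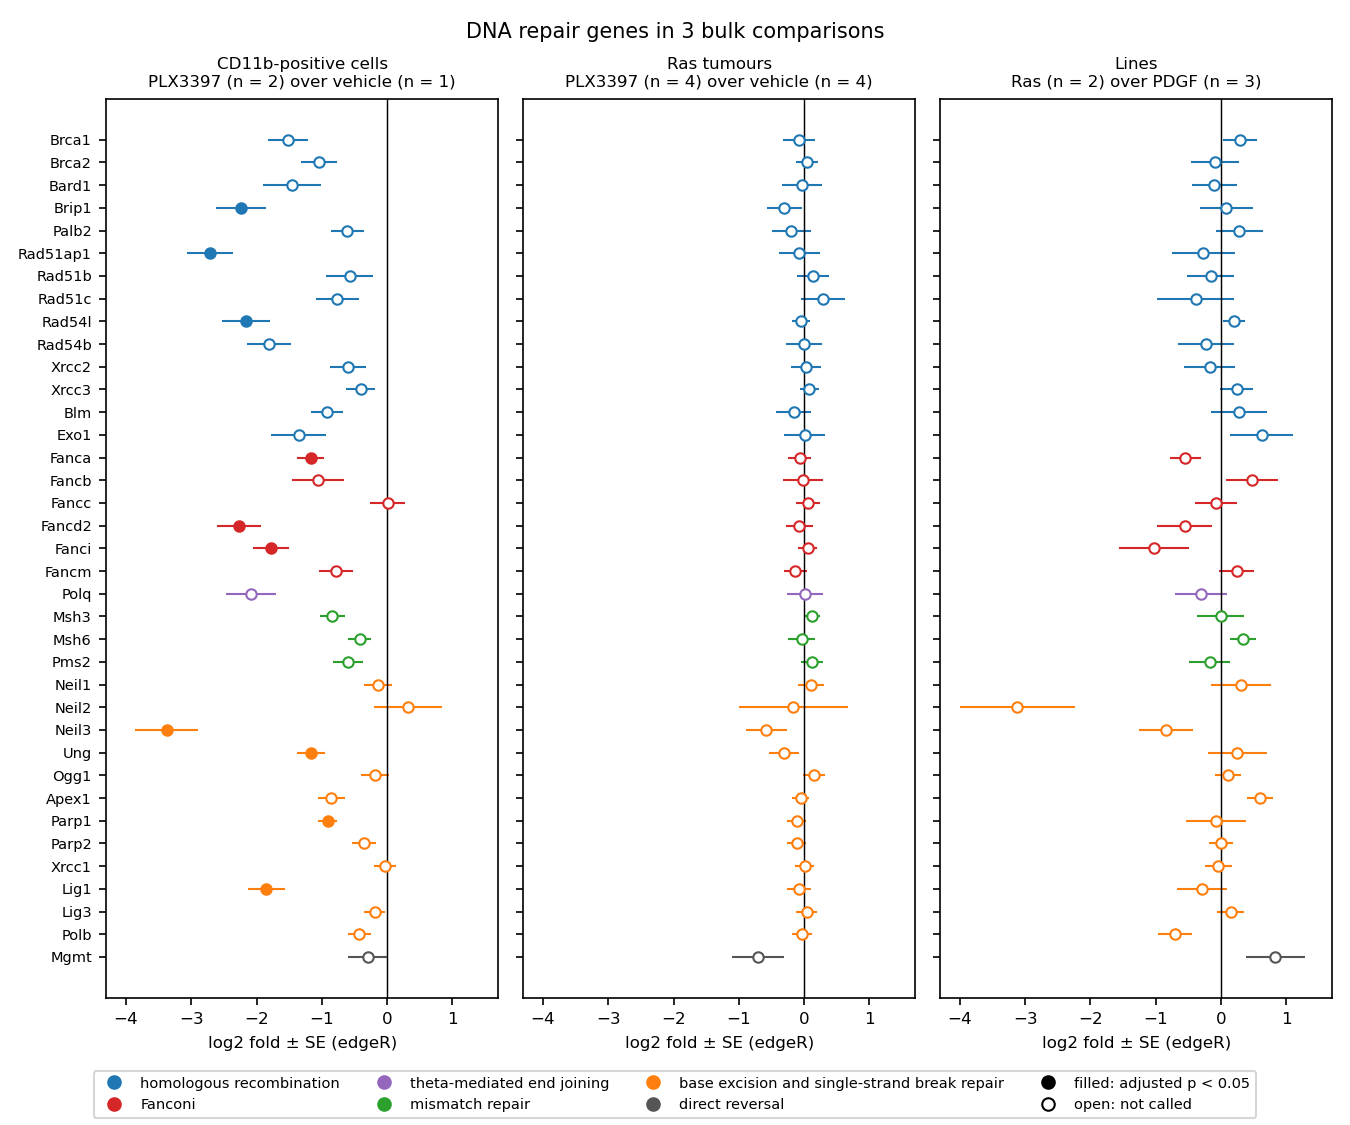
Log2 fold with its SE for the 37 repair genes in the 3 bulk comparisons, coloured by pathway, with filled points at an adjusted p under 0.05. All 10 filled points are in CD11b-positive cells and lie between -0.91 and -3.38, while the Ras tumour values lie between -0.70 and 0.29.

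Across genes, levels are given as CPM per kilobase of exon, with groups from different kits set side by side as a description. Apex1, Parp1, Lig1 and Msh6 were among the 5 most abundant repair genes in both tumour groups and both line groups. Apex1 led in PLX3397 Ras tumours (56.0) and vehicle Ras tumours (56.7), and in Ras lines (84.5) and PDGF lines (58.1). In CD11b-positive cells Parp1 led, at 20.8 under PLX3397 and 37.4 under vehicle. Neil2 was lowest in all groups but the PLX3397 CD11b-positive cells, where Rad54b (0.35) and Neil3 (0.375) were the lowest. Lig1 stood second in vehicle CD11b-positive cells and eighth under PLX3397.

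In the single-cell libraries of the untreated Ras tumour, repair gene levels were set beside division counts. Barcodes were thinned to 4000 UMIs (10x) or 1000 UMIs (Drop-seq), and a barcode counted as dividing with at least 3 (10x) or 2 (Drop-seq) UMIs of the 15 division genes, none of which is a repair gene described here. In 10x, 372 of 2100 barcodes were dividing, with a summed repair level of 872 CPM, here UMIs scaled to 1e6 UMIs (exact Poisson 95% interval 825 to 920), against 447 (432 to 464) in the 1728 others. In Drop-seq, 844 of 3422 were dividing, with 1146 (1075 to 1220), against 694 (662 to 726) in the 2578 others. In 10x 70 barcodes lay at the cut and 190 lay 1 UMI below it, and in Drop-seq 190 and 597. With 1 library per method there is no test, and intervals cover counting error only. Both bins hold barcodes of several clusters, and the part of cell type in these levels was not tested.

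A set of 9 genes were at least 3-fold higher in dividing barcodes of both libraries: Brca1, Brip1, Rad51ap1, Rad54l, Rad54b, Exo1, Fancd2, Fanci and Neil3. Neil3 had 11.4 CPM in dividing and 0.579 in other 10x barcodes (ratio 19.7, interval 6.44 to 80.6), and 33.2 in dividing and 3.88 in other Drop-seq barcodes (ratio 8.55, interval 4.03 to 19.7). Brip1 had ratios of 9.29 (4.15 to 22.2) in 10x and 8.65 (3.26 to 26.8) in Drop-seq. Fancd2 had ratios of 10.7 (4.89 to 25.1) in 10x and 6.11 (2.73 to 14.6) in Drop-seq. The other barcodes also held UMIs of each of the 9 genes, at a lower level. The intervals of Brca1, Brip1 and Neil3 lay above 3 in both libraries, and those of the other 6 reached below it in at least 1.

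A second set of 9 had ratios under 1.5 in both libraries: Fancc, Msh3, Neil1, Apex1, Parp1, Parp2, Lig3, Polb and Mgmt. The intervals lay under 1.5 in both libraries for Msh3, Apex1 and Polb. Those of the other 6 reached past 1.5 in at least 1 library, as for Neil1 (ratio 1.49, interval 0.620 to 3.25 in 10x), so their place in the set is not settled at this depth. Polb had 40.3 CPM in dividing and 38.8 in other 10x barcodes (ratio 1.04, interval 0.773 to 1.38), and 66.4 in dividing and 69.4 in other Drop-seq barcodes (ratio 0.956, interval 0.695 to 1.30). Apex1 had ratios of 1.21 (1.0 to 1.46) in 10x and 1.08 (0.870 to 1.34) in Drop-seq. Lig1 lay between the sets, at 3.22 (2.6 to 3.98) in 10x and 2.80 (2.26 to 3.45) in Drop-seq. Polq was high in 10x, with a ratio of 14.9 (5.20 to 51.9), but had 5 and 8 UMIs in the Drop-seq bins, a ratio of 1.91 (0.491 to 6.62). Ung was at 3.83 (2.48 to 5.87) in 10x and 0.743 (0.315 to 1.57) in Drop-seq, so the methods differ for it.

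**Figure D5:**
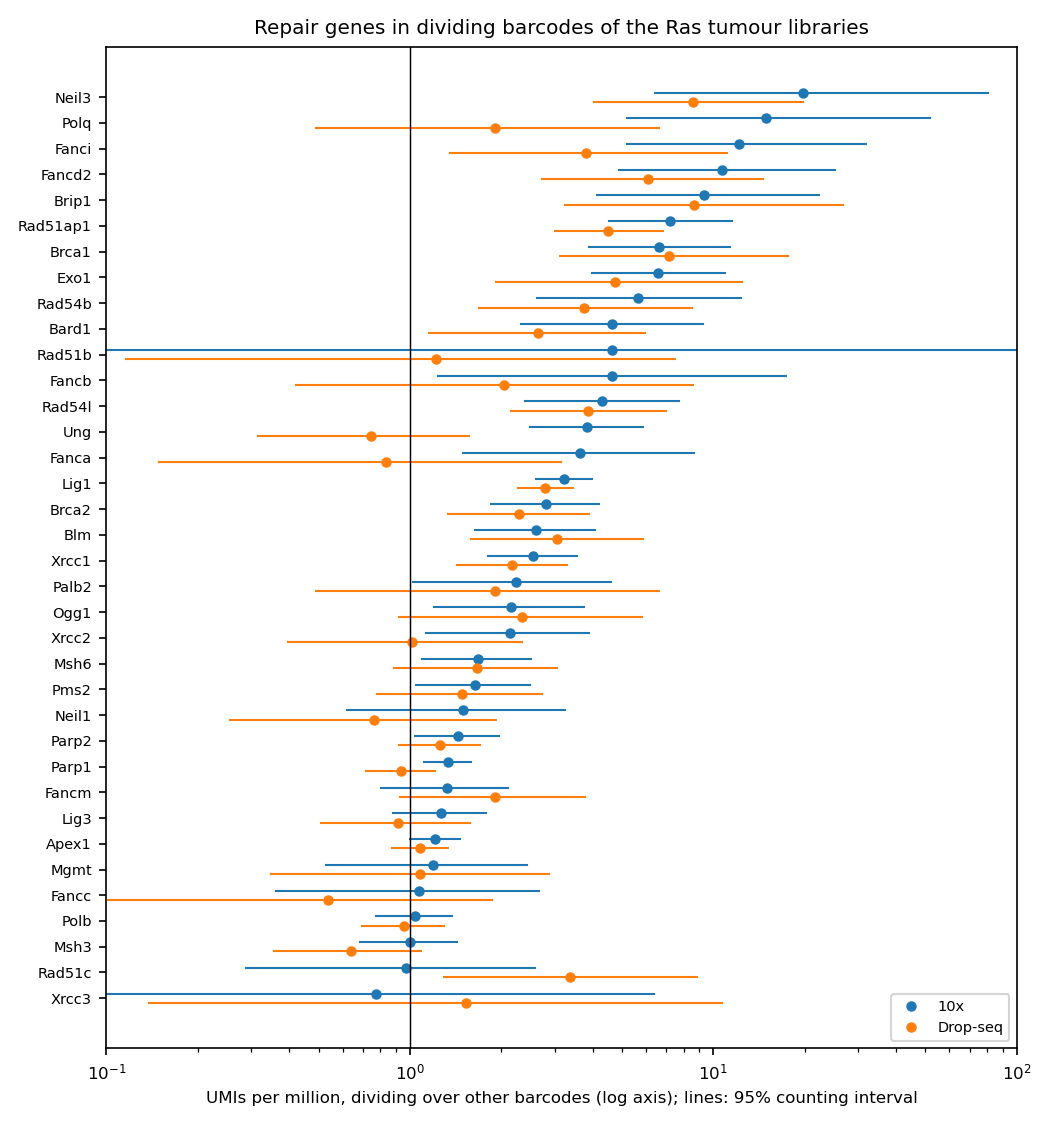
Ratio of CPM in dividing over other barcodes (log axis) for the 36 repair genes with a ratio, in 10x and Drop-seq, ordered by the 10x ratio, with 95% counting intervals cut off at the plot's edge. Neil3 leads in 10x at 19.7, and Polb, Msh3 and Fancc lie near or below 1 in both libraries.

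Ung, Msh6, Neil3 and Fancd2, picked after their values were seen, differed between bins of replication and division counts. Barcodes were split further by at least 3 (10x) or 2 (Drop-seq) UMIs of the 18 replication genes, and levels were taken from unthinned counts. Ung had 31.2 CPM (27.4 to 35.4) in the 261 10x barcodes with replication but not division counts, 29.8 (25.9 to 34.0) in the 206 with both, 4.85 (3.20 to 7.06) in the 166 with division counts alone and 3.56 in the 1467 with neither. Msh6 had 27.7, 28.5, 12.6 and 10.2 CPM in the same order. Neil3 had 2.32 (1.38 to 3.67), 19.1 (16.1 to 22.6), 8.44 (6.20 to 11.2) and 0.375, and Fancd2 had 2.84, 16.2, 7.90 and 1.19. Ung and Msh6 were thus higher in both bins with replication counts, and Neil3 and Fancd2 in both bins with division counts. In Drop-seq, Ung again had more in barcodes with replication alone (56.8, interval 42.0 to 75.1) than with division alone (6.27, interval 2.87 to 11.9), and Neil3 less (11.6, interval 5.56 to 21.3, and 18.8, interval 12.4 to 27.4, with overlapping intervals).

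The order of the genes by division in the Ras tumour library was set beside their order by fold in cells isolated from PDGFB tumours. Across the 36 genes with a ratio, the log2 fold under PLX3397 and the log2 10x ratio had a Pearson r of -0.83 and a Spearman rho of -0.77, and with the Drop-seq ratio -0.73 and -0.66. Genes are not independent replicates, so no p is given. Of the 9 genes at least 3-fold higher in dividing barcodes, 6 were called lower in CD11b-positive cells (median log2 fold -2.16), against 1 of the 9 with ratios under 1.5 (median -0.36) and 3 of the other 19 (median -0.76). In the Ras tumours, the same 3 sets had median log2 folds of -0.07, -0.03 and -0.01.

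Repair genes were also counted within single clusters. In 10x, the unnamed cluster led by C1qa, C1qc and C1qb, genes of microglia and macrophages, held 45 dividing and 195 other barcodes of sufficient depth. The 10 genes called lower in CD11b-positive cells summed there to 350 CPM (269 to 448) in dividing and 156 (130 to 187) in other barcodes. Parp1 and Lig1 weigh most in this sum. Over all 10x barcodes they gave 165 and 152 of its 527 UMIs in dividing barcodes, and 576 and 219 of its 952 in others. All 37 repair genes summed to 667 (553 to 797) in dividing and 408 (364 to 455) in other barcodes of the C1qa cluster. The order was reversed in the Drop-seq cluster led by Ube2c and Mki67. Its sums were 1208 (1124 to 1297) in 634 dividing and 1619 (1320 to 1965) in 63 other barcodes. Those 63 had more counts of replication genes, at 2619 CPM against 1651 CPM in the dividing ones. Their division genes stood at 683 CPM, against 8121 CPM. Dividing barcodes had the higher sum in the other clusters where both bins were counted, but some intervals overlapped. In the 10x cluster led by Lcn2 the sums were 545 (452 to 652) in dividing and 422 (374 to 473) in other barcodes. In 61 other barcodes of the erythroid-like cluster the 10 genes had 1 UMI, or 4.1 CPM (0.104 to 22.8). All 37 repair genes had 12 UMIs there, or 49.2 CPM (25.4 to 85.9). The median was 5719 UMIs per barcode there, against 14774 UMIs in the dividing C1qa barcodes. A sum of 1 UMI is too small to serve as a floor for other clusters. The cluster led by Mki67, Cenpf and Top2a had the highest repair level of the 10x clusters, at 1015 CPM, and the cluster led by Ube2c and Mki67 that of the Drop-seq clusters, at 1269, though these genes took part in the clustering.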

How the data were processed

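The 37 genes and all gene lists were chosen with earlier results of these data known. The authors deposited raw read counts per gene symbol for 16 bulk libraries and UMI counts (UMI: a tag for 1 captured molecule) per barcode for 2 single-cell libraries, with no normalization. The submitters' processing notes name STAR 2.6.1e and featureCounts 1.6.2, with cutadapt 1.9.1 and Trim Galore 0.4.2, then Cell Ranger, FastQC 0.11.7 and build GRCm38, and give no roles. Entries whose names had become dates (27 per tumour or line table, at most 0.360% of a library) and 1 nameless entry of the CD11b table were left out, as were 5 columns of the line table that matched no sample.

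The libraries of each bulk comparison had their own edgeR 4.0.16 fit (R 4.3.3; quasi-likelihood, robust, TMM, default filter on low counts), and a call needs p under 0.05 after Benjamini-Hochberg adjustment across every gene in that fit. DESeq2 1.42.0 and other settings were alternatives. SE is the log2 fold over the root of F. Named were all called genes up to 10, otherwise the 6 smallest p, and the extremes of each pathway. Other genes named beside them (Brca1, Rad54b, Lig3, Chek1, Topbp1, Mki67 and Mcm3 in CD11b-positive cells, Neil1 in the lines, and those of the single-cell results) were chosen after their values were seen. The fits were tested on simulated data: the share of false calls exceeded the nominal level with both tools in the CD11b design, and with DESeq2 in the tumours and lines. Sums over lists and levels per kilobase use library totals without TMM.

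Minimums per 10x barcode were 500 UMIs with 300 genes detected, and per Drop-seq barcode 300 UMIs with 200 genes detected. A mitochondrial share above 20% removed a barcode. These filters left 3320 of 4384 and 4901 of 5000. Barcodes had 16 bases in 10x and 12 bases in Drop-seq, so none could be shared between the libraries. Scrublet marked 0 doublets in either library, which means it did not work here, and doublets remain. Thinning left out 1220 and 1479 shallower barcodes. Clusters were made with scanpy 1.11.5 (Leiden, resolution 0.5). The split by replication counts, the 3-fold and 1.5-fold sets, and the values by cluster were chosen after seeing the data.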

Additional observations from a re-analysis of the deposited data

Results flagged for a closer look

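In 4 of 74 groups of 4 Ras tumour libraries tested (37 genes in 2 groups), 1 library stood far from the other 3, and chance gives about 1 in 20. Brca2 had 17.2 CPM in PLX3397 tumour 3, against 13.8 CPM in each of the other PLX3397 tumours. Xrcc3 had 22.2 CPM in PLX3397 tumour 2, against 17.0 to 17.3 CPM in the others. Neil1 had 12.9 CPM in vehicle tumour 1, against 8.45 to 9.06 CPM in the other vehicle tumours, and Ogg1 had 26.3 CPM in the same tumour, against 21.9 to 22.5 CPM.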

How the results depend on the processing

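In CD11b-positive cells the 10 genes called lower were 14 with DESeq2, 12 with RLE size factors and 15 with no filter on low counts, and no alternative gave a higher call. All genes called lower there were 3.99% with DESeq2, 2.15% with RLE and 3.33% with no filter, against 1.78% in the reported fit. The added genes were Brca1, Bard1, Rad54b, Blm, Polq and Apex1, each under 1 to 3 of these settings. The lone vehicle library could not be left out, and without 1 PLX3397 library the median log2 fold was -0.935 to -0.796 with no test. In the Ras tumours no alternative called any of the 37, and with 1 library left out their median ran from -0.144 to 0.0605, so its sign is not settled. In the lines 1 gene was called lower with DESeq2 (Neil2) and 1 without Ras line 2 (Fanci), against 5.3% and 5.68% of all genes called lower by those fits. The count without 1 line ran from 0 to 1, and the median from -0.379 to 0.242. With the replicate number as a block, 0 genes were called in the Ras tumours and in the lines (medians -0.0439 and 0.0246). The labels do not say that numbers pair the samples. In the tumours, same-number correlations of deviations from group means were 0.0106, 0.138, -0.454 and 0.55. Different-number correlations there ran from -0.769 to 0.667. In the lines, same-number correlations were -0.158 and -0.119. With 2 Ras lines the deviations mirror each other, so this check cannot decide on pairing in the lines. No paired analysis was possible in the CD11b-positive cells because the groups share 1 number.

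In dividing barcodes the repair level was 767 CPM of UMIs in 10x and 1013 in Drop-seq with a cut 1 UMI lower, and 819 in 10x with no limit on the mitochondrial share. In other barcodes it was 484 in 10x on unthinned counts and 654 in Drop-seq with a cut 1 UMI lower. Low counts limit Neil2, Mgmt and, in single cells, Rad51b and Xrcc3.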
